A study of Mus musculus with 6 samples.

Results

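The AP-1 and EGR immediate early genes examined here are 10 genes taken by symbol, 4 of the FOS family (Fos, Fosb, Fosl1, Fosl2), 3 of the JUN family (Jun, Junb, Jund) and 3 of the EGR family (Egr1, Egr2, Egr3), out of 48397 symbols in the deposited count files. All 10 were among the 16198 genes that passed the filter on low counts. They were read in 6 bulk RNA-seq libraries of EGFP-positive lung cells sorted from pups of genotype PdgfraEGFP/+ at postnatal day 8, an allele in which green fluorescence reports Pdgfra, whose product is a receptor for PDGF on mesenchymal cells. The dams, also PdgfraEGFP/+, had been injected intraperitoneally at E18.5 of gestation with the hedgehog-binding antibody 5E1 (3 libraries) or with control IgG (3 libraries). The 2 groups share the genotype, the sort and the age, and differ in the labels by the antibody given to the dam. The labels do not say whether a library is 1 pup, a pool or a litter, and p-values therefore reflect the spread among these libraries, which may be technical.

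Immediate early genes are transcribed within minutes of a stimulus without new protein synthesis. FOS and JUN proteins pair through leucine zippers to form AP-1, which binds DNA at the TPA response element; FOS proteins need a JUN partner, whereas JUN proteins can also pair with each other. EGR proteins bind a GC-rich motif through zinc fingers and are held in check by the NAB corepressors. Growth factor signals reach these genes by serum response factor at the CArG box and by CREB at the cAMP response element, and their short-lived mRNAs carry AU-rich elements in the 3' UTR that the ZFP36 proteins bind. The same genes are also known to respond to the enzymes and handling used to dissociate a tissue.

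Sequence ahead of the RefSeq transcript start, where signal-driven factors bind, was at hand for 7 of the 10 genes and is shown for 3 (Fos, Jun and Junb). In GENCODE M21 (GRCm38) Fos spans chr12:85473890-85477273 with 4 exons, while Jun (chr4:95049034-95052222) and Junb (chr8:84974484-84978718) have 1 exon in their principal transcript. Each window is the 250 bases before the start (RefSeq, build GRCm38.p6, 5' to 3' on the gene's strand), and capitals mark matches to the motifs searched on both strands. Windows of a gene's alternative starts were searched together. Fos lies at chr12:85473640-85473889 on the plus strand, Jun at chr4:95052223-95052472 on the minus strand and Junb at chr8:84978749-84978998 on the minus strand.
Fos: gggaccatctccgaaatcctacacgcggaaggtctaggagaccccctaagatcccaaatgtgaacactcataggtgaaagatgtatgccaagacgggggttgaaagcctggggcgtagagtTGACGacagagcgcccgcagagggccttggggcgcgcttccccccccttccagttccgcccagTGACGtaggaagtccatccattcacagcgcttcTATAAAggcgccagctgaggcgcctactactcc
Jun: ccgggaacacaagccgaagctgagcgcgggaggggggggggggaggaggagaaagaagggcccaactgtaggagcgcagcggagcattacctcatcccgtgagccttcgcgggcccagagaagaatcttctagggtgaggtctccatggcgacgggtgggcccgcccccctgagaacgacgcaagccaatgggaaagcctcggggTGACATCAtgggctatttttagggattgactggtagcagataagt
Junb: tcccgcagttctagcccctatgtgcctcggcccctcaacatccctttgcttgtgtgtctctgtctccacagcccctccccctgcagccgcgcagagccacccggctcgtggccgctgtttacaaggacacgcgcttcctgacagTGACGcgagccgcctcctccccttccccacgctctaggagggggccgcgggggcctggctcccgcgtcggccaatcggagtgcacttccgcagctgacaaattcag
The core of the cAMP response element, TGACG, stood in windows of 4 of the 7 genes (Fos, Fosb, Junb and Egr2) and in 17.7% of 32817 windows of that length, and in Fos it stood at -129 and again at -66, ahead of a TATA box (TATAAA, in 12.4% of windows) at -33. The variant TPA element TGACATCA, held by 2.93% of windows, was found in Jun at -45. The EGR motif GCGNGGGCG was found in Fosb and Fosl2 (4.70% of windows), while neither the full element TGACGTCA (1.55%) nor the TPA element TGANTCA (6.75%) was found in the 7. The windows of Fosb and Fosl2 each overlap a GENCODE exon of their own gene. That of Fosl2 (chr5:32136222-32136471) lies inside the GENCODE gene, which starts at chr5:32135801. TGACG is also the first part of TGACGTCA. The window of Jund held no match to any of the motifs. It ends at chr8:70697738, well ahead of the GENCODE start of Jund at chr8:70698949. Sequence next to that GENCODE start was not searched. Sequence more than 250 bases ahead of a start was not searched, so a gene without a match here may hold the motif there. Egr2 had several windows, all overlapping its RefSeq gene, which gives it more room for a match than 1 window. The CArG box, in 1.47% of windows, was found in Egr2 and is shown as a 30-base stretch of chr10:67537787-67537816.
Egr2: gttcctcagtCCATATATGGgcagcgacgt
A match is a description of letters in these windows and not a measured site.

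All 10 genes held the pentamer ATTTA in the 3' UTR of their principal GENCODE transcript, as did 67.7% of 13403 genes with a 3' UTR, and 6 held the heptamer TATTTAT that ZFP36 proteins are known to bind, as did 28.9%. ATTTA stood at 2.12 per kb of 3' UTR in these genes and at 1.83 per kb over all genes. One stretch of 30 bases is shown for 4 genes with the heptamer, with ATTTA in capitals, from chr12:85477101-85477130 (Fos), chr5:32156865-32156894 (Fosl2), chr4:95049078-95049107 (Jun) and chr8:70700359-70700388 (Jund) of GRCm38.
Fos: tgtgttttcaATTTATTTAttaagatggat
Fosl2: attgacATTTAttttattATTTAttttaaa
Jun: ttgcttgtgcatATTTAtaatagcgttcgt
Jund: cgattccgccctATTTAtgtttctactcgg
Fosl2 had the most ATTTA copies (8, in a 3' UTR of 4653 bases), followed by Egr3 with 7 and by Fos and Jun with 4 each.

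The 10 genes took 0.388% to 0.579% of gene reads in the IgG libraries, whose depth was 16958433 to 28405457 such reads, and 0.704% to 0.857% in the 5E1 libraries, at 18857199 to 34318583. As markers of the sort, Pdgfra measured 413 to 556 CPM (read counts scaled to normalised library sizes) in IgG and 574 to 720.5 CPM in 5E1. It was not called by edgeR (adjusted p 0.0742) but was by DESeq2 (0.0300). The summed level of 8 mesenchymal markers was 77394 to 95458 CPM and 113932 to 165477 CPM. Eln and collagen genes carry most of that sum, with a mean in IgG of 27953 CPM for Eln and 502 CPM for Pdgfra. Of the 8 markers 3 were called higher, and 7 were higher at an unadjusted p under 0.05. Leukocyte markers summed to 49.5 to 60.6 CPM in IgG and 104 to 147 CPM in 5E1, with 8 of 8 higher, and of 10 neutrophil markers, 9 of which were tested, 9 were higher (13.9 to 18.6 CPM and 132 to 216 CPM in sum), with Ly6g at 0 reads in 2 IgG libraries. Endothelial markers summed to 118 to 143 CPM and 135 to 298 CPM, with 1 of 8 higher. Epithelial markers summed to 436 to 688 CPM and 485 to 1489 CPM, with 1 of 10 higher. The top of both the endothelial and the epithelial 5E1 range was replicate 2. In 5E1 replicates 1 and 3 the epithelial sums (524 and 485 CPM) lay within the IgG range, and the endothelial sums were 167 and 135 CPM. Mesothelial markers summed to 47.4 to 88.6 CPM and 127 to 248 CPM, with 2 of 6 higher. Over all genes tested 12.1% were called higher, near the shares of the endothelial and epithelial markers. Without 5E1 replicate 3 the endothelial and epithelial counts were 4 each, and the mesothelial count was 1 without IgG replicate 1 or 2 or 5E1 replicate 2 or 3. Macrophage markers summed to 89.2 to 114 CPM and 137 to 283 CPM (5 of 10 higher, 8 by DESeq2, 2 without IgG replicate 1 or 2 and 3 without 5E1 replicate 2) and red blood cell markers to 158 to 197 CPM and 255 to 1098 CPM (0 of 5 higher by edgeR, 2 by DESeq2, 2 at an unadjusted p under 0.05, and 4 by edgeR without 5E1 replicate 3, which held the highest sum). The part of these cells in the results below was not tested. IgG replicate 3 and 5E1 replicate 1 each held 2 reads of 4 Y-linked genes, against 3592 to 6913 in the other libraries.

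Of the 10 genes, 8 rose in cells from 5E1-exposed pups and none fell. Over all genes tested 12.1% were called higher and 11.1% lower, or 23.2% in either direction (edgeR quasi-likelihood test, adjusted p under 0.05). None was lower at an unadjusted p under 0.05 or with DESeq2 either. Log2 fold changes ran from 0.17 to 1.13 with a median of 0.70, beside a median of 0.00087 over all genes. In 8 of the 10, every 5E1 library lay above every IgG library, as for 20.8% of all genes tested. In bulk samples, more cells of a type and more RNA per cell cannot be told apart. The count of genes that rose was 4 without 5E1 replicate 3 and 5 without IgG replicate 3.

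**Figure D1:**
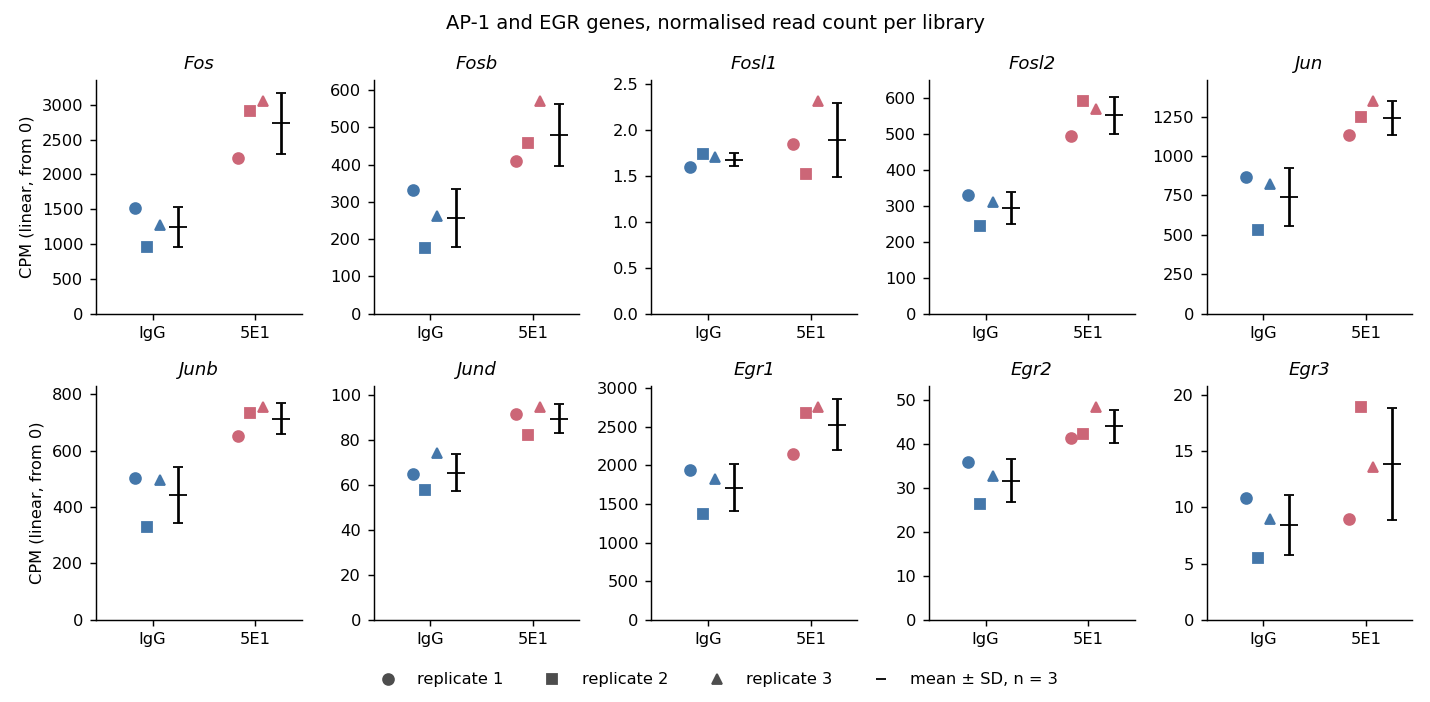
Normalised read count (CPM, linear axes from 0) of each of the 10 genes in the 3 IgG and 3 5E1 libraries; symbols are libraries and bars are mean ± SD. The 5E1 libraries stand above the IgG libraries for 8 genes and overlap them for Fosl1 and Egr3.

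Fos, the founding member of its family, had the largest log2 fold change of the 10. It measured 1519, 951 and 1276 CPM in IgG replicates 1 to 3 and 2233, 2911 and 3053 CPM in 5E1 replicates 1 to 3. The lowest 5E1 library was above the highest IgG library, and the fold change was 2.19 (log2 1.13, SE 0.18, edgeR adjusted p 0.00201). Fosl2, which encodes FRA2, an AP-1 subunit without the strong activation domain of FOS, measured 329, 243 and 310 CPM in IgG and 493, 591 and 570 CPM in 5E1. Its groups were also apart, and it rose 1.87-fold with the smallest adjusted p of the 10 (log2 0.91, SE 0.13, edgeR adjusted p 0.000835). With any single library left out, Fos and Fosl2 stayed called, at adjusted p of at most 0.0127 and 0.00506.

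Fosb, which encodes a FOS paralog that also has a truncated splice form, measured 332, 175 and 263 CPM in IgG and 408, 459 and 571 CPM in 5E1. The IgG values spread widely, and the rise of 1.87-fold had a larger error (log2 0.90, SE 0.23, edgeR adjusted p 0.0285). The call ended without IgG replicate 3 (adjusted p 0.0917), 5E1 replicate 2 (0.0770) or 5E1 replicate 3 (0.0938). The deposited counts are per gene, so the full and truncated forms of Fosb were not separated. Fosl1, which encodes FRA1, had only 31 to 63 reads per library, or 1.60, 1.74 and 1.71 CPM in IgG and 1.85, 1.52 and 2.32 CPM in 5E1. The groups overlapped, and the interval of its log2 fold change ran from -0.50 to 0.85 (edgeR adjusted p 0.728), which includes the estimate of Jun but not that of Fos. Of its exonic bases in GENCODE, 1163 lie opposite Ccdc85b, and since the strand setting of the counting is not stated, its reads are uncertain.

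The JUN genes, which supply the obligate partner of FOS, all rose, with log2 fold changes of 0.45 to 0.75. Jun measured 866, 531 and 823 CPM in IgG and 1133, 1246 and 1349 CPM in 5E1 (1.68-fold, log2 0.75, SE 0.17, edgeR adjusted p 0.0125). Junb, whose protein is a weaker activator than JUN and can oppose it, measured 504, 328 and 495 CPM in IgG and 652, 734 and 755 CPM in 5E1 (1.61-fold, log2 0.69, SE 0.16, edgeR adjusted p 0.0112). For both genes IgG replicate 2 was the lowest library and the groups did not overlap. The call of Jun ended without 5E1 replicate 3 (adjusted p 0.0512), and that of Junb held with each library left out (adjusted p at most 0.0462).

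Jund, a JUN gene known for steady expression in resting cells, measured 64.7, 57.5 and 73.9 CPM in IgG and 91.5, 82.2 and 94.5 CPM in 5E1. Its rise of 1.37-fold was the smallest of those called, and its error was the smallest of the 10 (log2 0.45, SE 0.10, edgeR adjusted p 0.0106). With each library left out it stayed called, at adjusted p of 0.00633 to 0.0488. Jund shares 877 exonic bases with Gm11175 on the other strand, Jun 232 with Junos and Junb 173 with Prdx2, so part of their reads could belong to the partner or have been set aside as ambiguous.

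Among the EGR genes, Egr1, whose product links growth factor and stretch signals to transcription, measured 1942, 1367 and 1825 CPM in IgG and 2147, 2672 and 2753 CPM in 5E1. The gap between the groups was narrow next to that of Fos, and the fold change was 1.47 (log2 0.56, SE 0.16, edgeR adjusted p 0.0264). The call ended without IgG replicate 2 (adjusted p 0.0997), IgG replicate 3 (0.0614), 5E1 replicate 2 (0.0524) or 5E1 replicate 3 (0.0885). Egr2, also known as Krox20 and a regulator of Schwann cells and hindbrain patterning, measured 35.8, 26.2 and 32.7 CPM in IgG and 41.4, 42.2 and 48.3 CPM in 5E1. Its groups were apart and it rose 1.39-fold (log2 0.47, SE 0.12, edgeR adjusted p 0.0176), but not without IgG replicate 2 (adjusted p 0.0648), IgG replicate 3 (0.0508) or 5E1 replicate 3 (0.0791).

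Egr3 was low, at 98 to 635 reads per library, and measured 10.8, 5.49 and 8.97 CPM in IgG and 8.97, 18.9 and 13.6 CPM in 5E1. The groups overlapped through 5E1 replicate 1, and the log2 fold change of 0.71 (SE 0.31, edgeR adjusted p 0.137) did not pass. It passed without 5E1 replicate 1 (adjusted p 0.0336), by DESeq2 (0.0451) and when all genes were kept (0.000988). Egr4, the remaining EGR gene, had 21 reads over the 6 libraries and was not tested.

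**Figure D2:**
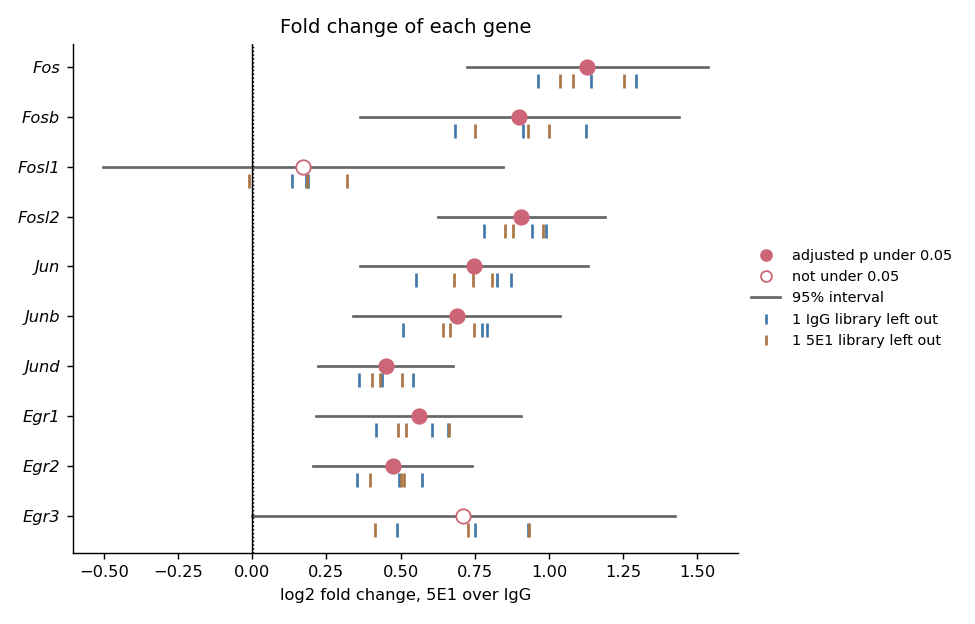
Log2 fold change of each gene, 5E1 over IgG, with its 95% interval; filled points have an adjusted p under 0.05, ticks give the value with 1 library left out, and the dotted line is the median of all genes. Fos is highest at 1.13, Jund lowest of those called at 0.45, and the ticks of Fosl1 reach -0.0095.

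Levels per kilobase of merged exon put the families on 1 scale. In IgG the order was Fos (531 ± 121 CPM per kb, SD, n = 3), Egr1 (382 ± 67.7), Jun (232 ± 57.3), Junb (192 ± 43.1), Fosb (41.1 ± 12.6), Jund (39.2 ± 4.94), Fosl2 (30.4 ± 4.65), Egr2 (9.29 ± 1.44), Egr3 (1.91 ± 0.612) and Fosl1 (0.827 ± 0.0349). The ranges of Fos and Egr1, of Jun and Junb, and of Fosb and Jund overlapped, and the other neighbours were apart. In 5E1 Fosl2 (56.9 ± 5.33 CPM per kb) stood next to Jund (53.6 ± 3.87) with overlapping ranges, and all other neighbours were apart. Fos (1162 ± 186 CPM per kb) then led Egr1 (563 ± 73.3) with no overlap.

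Among 15676 genes with a length, Fos ranked 34 in IgG and 15 in 5E1 by this level, Egr1 52 and 40, Jun 107 and 73, and Junb 140 and 99. Fos made up 88.0% ± 0.185 of the summed FOS family per kb in IgG and 89.6% ± 0.568 in 5E1. Each 5E1 library (89.0%, 90.1% and 89.6%) was above each IgG library (88.0%, 88.2% and 87.8%). Jun and Junb shared most of the JUN pool, with Jun at 49.9% ± 1.43 and 51.7% ± 0.604 and Junb at 41.5% ± 0.103 and 41.2% ± 0.773. Egr1 was 97.1% ± 0.0617 and 97.2% ± 0.0863 of the EGR pool. Merged exons can include introns retained in some annotated transcripts, which lowers a level per kb, and their length was 2352 bases for Fos, 4484 for Egr1, 6243 for Fosb and 9680 for Fosl2.

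Each gene was also set against Fos within its library, as a ratio of CPM that is not per length and is read only between libraries. The ratio of Egr1 to Fos was 1.28, 1.44 and 1.43 in IgG and 0.962, 0.918 and 0.902 in 5E1. The ratio of Jun to Fos was 0.570, 0.558 and 0.645 in IgG and 0.508, 0.428 and 0.442 in 5E1. Of 9 ratios to Fos, 6 were lower in every 5E1 library than in any IgG library (Fosl1, Jun, Junb, Jund, Egr1 and Egr2), none was higher in every one, and those of Fosb, Fosl2 and Egr3 overlapped. Fos was taken as the reference after its fold change was seen to be the largest, which favours lower ratios in 5E1. The 9 ratios share it. Since Fos was higher in each 5E1 library, a gene at a steady level would also have a lower ratio in each. Fosl1, not called itself (log2 0.17, edgeR adjusted p 0.728), is among the 6. Such ratios were not counted over all genes, so 6 of 9 does not set these genes apart. The ratios are a description with no test.

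**Figure D3:**
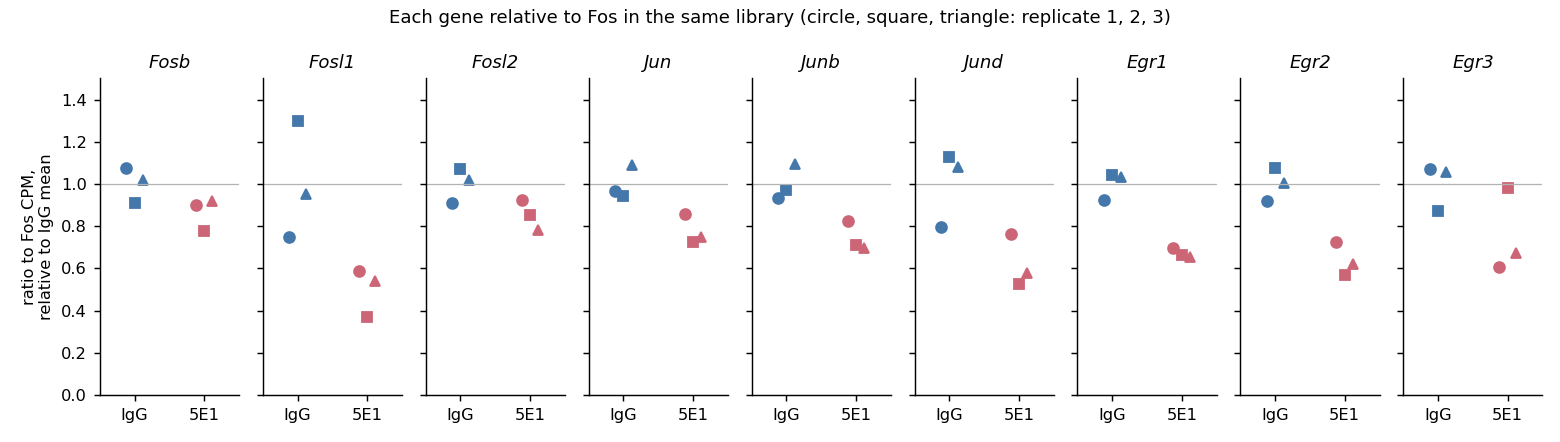
Ratio of each gene's CPM to that of Fos in the same library, divided by the mean ratio of the IgG libraries (linear axes from 0; circle, square and triangle are replicates 1, 2 and 3). For Egr1 the IgG and 5E1 ratios are well apart, with means of 1.38 and 0.927 before scaling, while those of Fosb and Fosl2 overlap.

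Levels of most of the genes also varied together among the libraries of a group. IgG replicate 2 was the lowest IgG library for 9 of the 10 genes, the exception being Fosl1, and 5E1 replicate 1 was the lowest 5E1 library for 8. Once each group's mean was subtracted, log2 CPM of Fos, Fosb, Fosl2, Jun, Junb, Egr1 and Egr2 correlated over the 6 libraries with Pearson r of 0.86 to 0.99 in all 21 pairs. Correlations of Egr3 with these 7 were 0.66 to 0.94, those of Jund 0.37 to 0.68, and those of Fosl1 with the other 9 genes -0.40 to 0.44. The 7 were set apart from Egr3, Jund and Fosl1, which held the lowest correlations, so the high range follows in part from that choice. No range over other genes is given beside it. All these correlations are descriptions over 6 points that share library and depth.

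IgG replicate 2 and 5E1 replicate 1 were also the shallowest libraries of their groups (16958433 and 18857199 reads in genes) and had the most unaligned reads (42.9% and 36.3%, against 20.4% to 32.8% in the others). Reads in no gene were 8.46%, 8.87% and 7.70% of uniquely aligned reads in IgG replicates 1 to 3 and 10.8%, 9.75% and 9.07% in 5E1. This share was higher in every 5E1 library than in any IgG library, and within each group it was highest in the library that was lowest for most of the genes. The part of depth, alignment or RNA quality in the levels and in the difference between the groups was not tested. Without IgG replicate 2 the log2 fold changes of Fos, Jun and Egr1 were 0.96, 0.55 and 0.42, and 6 of the 10 genes were called higher.

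**Figure D4:**
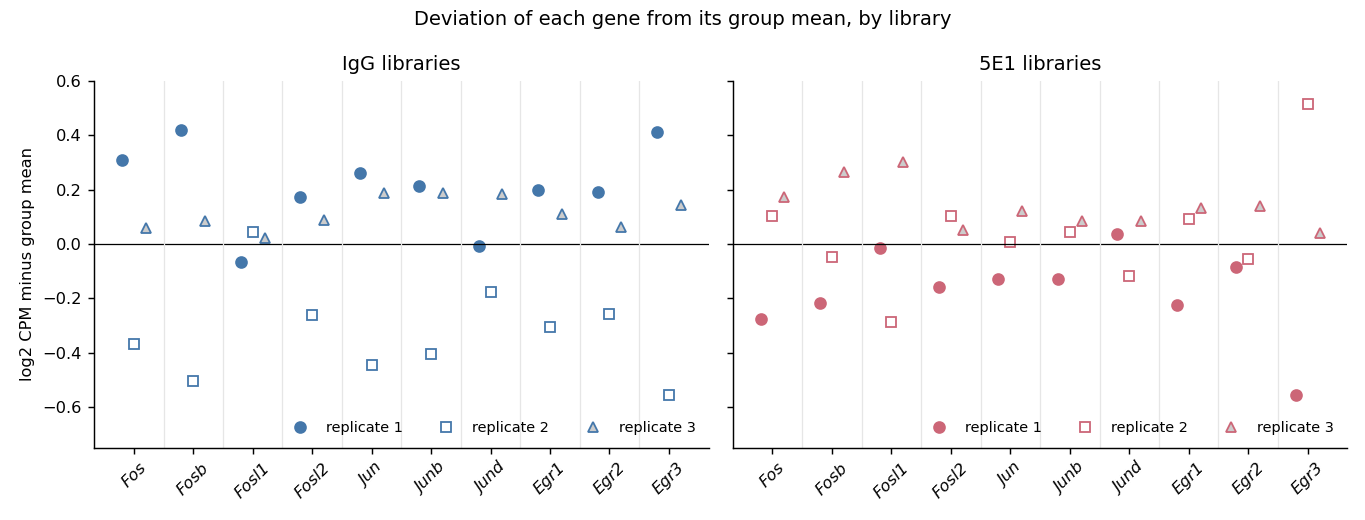
Deviation of each gene's log2 CPM from its group mean, by library (left, IgG; right, 5E1). IgG replicate 2 lies under 0 for every gene except Fosl1, and 5E1 replicate 1 lies under 0 for every gene except Jund.

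Genes that work around AP-1 and EGR were read from fixed lists. Of 12 other bZIP partners of FOS and JUN, 11 were tested (Batf2, with 33 reads, was not). By edgeR 5 rose (6 at an unadjusted p under 0.05), beside 12.1% called higher and 11.1% lower over all genes. None fell by edgeR, by DESeq2 or at an unadjusted p under 0.05. Atf3, a stress-induced partner of JUN, rose from 128 ± 37.5 to 352 ± 75.1 CPM (log2 1.46, edgeR adjusted p 0.00713), an estimate larger than that of any of the 10 genes. Jdp2, which encodes a JUN-binding repressor of AP-1, rose from 19.1 ± 3.25 to 43.9 ± 5.77 CPM. Maff, which encodes a small MAF bZIP protein, rose by a log2 fold change of 0.61, in the range of the JUN genes. Of the NAB corepressors, which bind EGR proteins, Nab1 rose (0.42) and Nab2 measured 34.8 ± 5.41 and 31.5 ± 2.85 CPM (edgeR adjusted p 0.436).

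Of 16 factors and kinases upstream of these genes 2 rose, a share near the 12.1% called higher over all genes. None fell, while 3 were lower at an unadjusted p under 0.05 and none was lower with DESeq2, and the median log2 fold change was -0.03. The 2 were Mef2a, a MADS-box factor gene (232 ± 3.91 and 396 ± 67.2 CPM, log2 0.77, edgeR adjusted p 0.00130), and Elk4, an ETS partner of serum response factor (0.33), whose call ended without IgG replicate 1 or 3, without 5E1 replicate 1 or 3, with the replicate block and with library size alone. Creb1, which encodes the factor of the cAMP response element, measured 106 ± 12.8 and 87.2 ± 4.17 CPM (edgeR adjusted p 0.0595). It was called lower when all genes were kept (adjusted p 0.0191), with a term for the libraries lacking Y-linked reads (0.0331) and without IgG replicate 3 (0.0205). Scaling by library size without TMM factors, which moved the median of all genes to -0.14, gave 5 of these 16 as lower, Creb1 among them, and 1 as higher.

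Feedback genes moved in both directions. Of 12 dual-specificity phosphatases and ZFP36 decay factors 5 rose and 3 fell, beside 12.1% called higher and 11.1% lower over all genes. Zfp36, whose product binds AU-rich elements such as those shown above, rose from 756 ± 199 to 1593 ± 280 CPM (log2 1.07, edgeR adjusted p 0.00536). Dusp1 (1.19) and Dusp5 (1.35), phosphatase genes that are themselves immediate early, rose too. Dusp10, which encodes a phosphatase of the JNK and p38 kinases, fell from 93.1 ± 8.04 to 46.1 ± 4.43 CPM (log2 -1.01, edgeR adjusted p 0.000122).

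**Figure D5:**
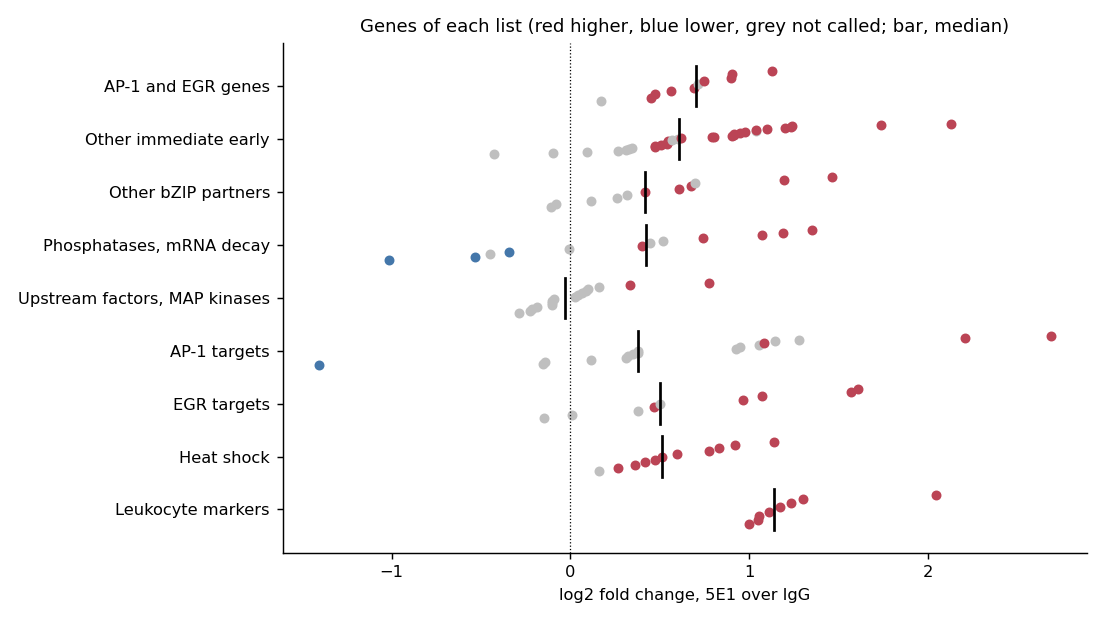
Log2 fold change, 5E1 over IgG, of each tested gene by list (red called higher, blue called lower, grey not called; bar, median of the list). The upstream list centres on 0 with a median of -0.03, and the AP-1 and EGR genes on 0.70.

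Of 32 other immediate early genes 22 rose by edgeR, beside 12.1% of all genes tested. The count was 25 by DESeq2 and 27 at an unadjusted p under 0.05, and the median log2 fold change was 0.61. None fell by any of these readings. One fell without 5E1 replicate 2 and 1 when all genes were kept. Nr4a3, an orphan nuclear receptor gene, rose from 95.1 ± 13.8 to 416 ± 102 CPM (log2 2.13, edgeR adjusted p 0.000181), Nr4a2 by 1.74, Myc by 1.24 and Sgk1 by 1.23. Cyr61, a matricellular protein gene, measured 1435 ± 289 and 1802 ± 214 CPM and did not pass (0.164).

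Heat shock genes are known, like immediate early genes, to rise when tissue is dissociated. By edgeR 10 of 11 were higher (6 of 11 without IgG replicate 2), beside 12.1% of all genes tested. None was lower by edgeR, by DESeq2 or at an unadjusted p under 0.05. Hspa1b, an inducible HSP70 gene, rose from 634 ± 92.0 to 1201 ± 168 CPM (log2 0.92, edgeR adjusted p 0.00125), Hspa1a by 0.78, Hspb1 by 1.14, Hspa8 by 0.60 and Hsph1 by 0.47. The summed level of the 11 was 2653 to 3253 CPM in IgG, lowest in replicate 2, and 4370 to 5301 CPM in 5E1, lowest in replicate 1. Those are the libraries that were lowest for most AP-1 and EGR genes. The part of dissociation and sorting in the result was not tested.

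Of 18 textbook AP-1 targets 17 were tested (Mmp10, with 2 reads, was not), 3 rose and 1 fell, beside 12.1% called higher and 11.1% lower over all genes. Among those that rose, Mmp3, a stromelysin gene, went from 6.61 ± 4.26 to 31.0 ± 2.10 CPM, and Mmp9, a gelatinase gene that neutrophils also express, from 1.21 ± 0.170 to 7.79 ± 2.14 CPM. The call of Mmp3 (edgeR adjusted p 0.0132) ended without IgG replicate 2 (0.0541) and when all genes were kept (0.0721). Ccnd1, the cyclin D1 gene and also a hedgehog target, fell from 52.4 ± 7.18 to 19.9 ± 6.94 CPM, and Vim, the vimentin gene, did not pass (1867 ± 113 and 2338 ± 96.2 CPM, edgeR adjusted p 0.0598). With limma-voom 6 rose and with DESeq2 5.

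Of 9 EGR targets 5 rose by edgeR (6 at an unadjusted p under 0.05), beside 12.1% of all genes tested. None fell by edgeR, by DESeq2 or at an unadjusted p under 0.05. Thbs1, the thrombospondin 1 gene, rose from 2974 ± 8.74 to 5807 ± 1339 CPM (log2 0.97, edgeR adjusted p 0.00254). F3, the tissue factor gene, rose by 1.61, a call that ended without IgG replicate 2 (adjusted p 0.0507). Icam1, an adhesion molecule gene, rose by 1.07 and Fgf2, a fibroblast growth factor gene, by 0.47. These lists are described by counts, and no difference between lists was tested.

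The genes most like Fos over the 6 libraries, by Pearson r of log2 CPM among 10480 named genes of at least 5 CPM that are not among the 10, included Arfip2, Scara5, Zfp36 and Klf6, with r of 0.997 to 0.998. Scara5, a scavenger receptor gene, measured 27.3 ± 11.9 CPM in IgG and 192 ± 70.3 CPM in 5E1, a far larger difference than the 70.8 ± 3.27 and 81.2 ± 2.54 CPM of Arfip2 (edgeR adjusted p 0.0143 and 0.0903). The call of Scara5 ended with the replicate number as a block (adjusted p 0.111) and without IgG replicate 3, 5E1 replicate 2 or 5E1 replicate 3 (0.0527 to 0.0624). For Egr1 they were Oplah, Kctd6, Stard13, Usp2 and Oat, with r of 0.993 to 0.998. The difference between the groups enters these values, and they are given as a description with no test.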

How the data were processed

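Per the labels' protocols, live EGFP-positive cells were flow-sorted and their RNA was prepared with a stranded mRNA kit. The authors deposited 1 file of raw counts for each library, with rows named by gene symbol. Per the submitters' processing notes, the tools were HTSeq 0.6.0, STAR 2.5.0c, DESeq2 1.10.0, bedtools 2.17.0, R 3.5.1 and Picard 1.126 and the build was mm10, without roles. The sources used here do not name the annotation, the strand setting or the handling of duplicates. HTSeq summary lines, 36.4% to 54.7% of each file's total, name no gene and were left out.

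Genes were kept with filterByExpr of edgeR (minimum count 10, total 15), scaled by TMM and tested by robust quasi-likelihood fits of edgeR 4.0.16 (R 4.3.3, group as the only term, prior count 0.125). P-values are two-sided and adjusted by Benjamini-Hochberg over all 16198 genes, with 0.05 as threshold. Each SE was obtained by dividing the coefficient without shrinkage by the root of its F statistic. CPM use TMM-scaled library sizes. Positions, exons, merged exon lengths and 3' UTRs came from GENCODE M21 (GRCm38, that is mm10), promoters from RefSeq. The script was tested on simulated data.

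The members and gene lists were chosen with earlier results of these data known. Named are all 10 genes, from each other list the 4 genes of lowest p and the gene of highest mean CPM, and the 5 genes most like Fos and Egr1; other names complete a small count or explain an overlap and were chosen after their values were seen. A few genes that the rule names are not reported here. Alternatives were limma-voom (limma 3.58.1), DESeq2 1.42.0, scaling by RLE or by library size alone, no filter or one of 5 CPM in 3 libraries, fits without robust estimation, a replicate block and each library left out. A term separating the 2 libraries that lack Y-linked reads, and the counts of other lists under all alternatives, were added after seeing the data.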

Additional observations from a re-analysis of the deposited data

How the results depend on the processing

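Under the alternatives, values of the 10 genes kept direction and side of the threshold in 133 cases, lost the call in 12 and gained it in 3. Fosl1 changed sign, to a log2 fold change of -0.0095, without 5E1 replicate 3. With single libraries left out, log2 fold changes lay between 0.68 and 1.13 for Fosb, -0.0095 and 0.32 for Fosl1, 0.55 and 0.87 for Jun, 0.42 and 0.66 for Egr1, 0.35 and 0.57 for Egr2 and 0.41 and 0.93 for Egr3, and the count called higher between 4 and 9. Genes changed over the whole table numbered 2305 to 3704 in these fits, against 3757, with 1221 to 1885 higher and 1073 to 1819 lower. Egr2 was 0.33 (adjusted p 0.0562) with library size alone, under which 3274 genes were lower and 28.6% of calls were higher instead of 52.3%. Egr3 was called by DESeq2 (0.72) and when all genes were kept (0.70). With CPM not divided by length, Fos was 69.3% of its family in IgG and 72.5% in 5E1, Jun 59.1% and 60.7%, and Egr1 97.7% and 97.8%. After group means were subtracted, same-numbered libraries correlated at -0.11, -0.04 and -0.09, which gives no sign of pairing by number. Whether a number marks a shared litter or day was not tested. Under the replicate block 8 genes were higher, 3220 genes changed and no call of the 10 altered. Among genes of other lists, Emcn and Scgb1a1 changed sign without 5E1 replicate 2, and with single libraries left out ran from -0.032 to 1.26 and from -0.44 to 0.80. Except where said, the cause was not tested. Fosl1, at 31 to 63 reads per library, carries the largest counting error of the 10.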
